A study of Mus musculus with 36 samples.

Results

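Small nucleolar RNA (snoRNA) host genes were followed across C2C12 myotubes with and without knockdown of the long non-coding RNA *Tug1*, before and after simulated exercise. The genes were taken by name from the count table, and they were *Gas5*, *Snhg1*, *Snhg3*, *Snhg4*, *Snhg5*, *Snhg6*, *Snhg8*, *Snhg12*, *Snhg15* and *Snhg18*. These 10 names matched 11 of the 55416 genes in the table, because *Snhg4* stands there under 2 identifiers. Of the 11, 9 passed a minimum of 1 RPM (read count scaled to library size) in no fewer than 12 of the 36 libraries and were among the 13995 genes tested. C2C12 is a mouse myoblast line whose cells fuse into multinucleate myotubes when serum is lowered. On day 3 of differentiation the myotubes were transfected with an antisense locked nucleic acid (LNA) that targets *Tug1* (*Tug1* KD) or with a control LNA (control myotubes), and the experiment followed 24 h later, on day 4. At Rest, electrodes sat in the medium without current, while electrical pulse stimulation (EPS) lasted 3 h, and cells were taken at its end for the group EPS 0h and 3 h later for the group EPS 3h. Each of the 6 groups held 6 poly-A-selected libraries, which the study describes as triplicate wells from 2 independent experiments of 1 cell line. The spread below is that between wells pooled over both experiments.

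A snoRNA host gene is transcribed as a long precursor whose introns contain snoRNAs. After splicing, the introns are trimmed to the snoRNAs, which join protein partners in the nucleolus and guide chemical modification or cleavage of ribosomal RNA. C/D box snoRNAs, bound by fibrillarin, direct ribose methylation, and H/ACA box snoRNAs, bound by dyskerin, direct pseudouridylation. The spliced exons of the non-coding hosts are exported, and many of them start with a pyrimidine run like ribosomal protein mRNAs and are short-lived because nonsense-mediated decay removes them when they are translated. Poly-A libraries read those exons, not the mature snoRNAs.

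*Gas5* (ENSMUSG00000053332) lies at chr1:160861793-160866118 (plus strand), *Snhg1* (ENSMUSG00000108414) at chr19:8700319-8703812 (plus) and *Snhg12* (ENSMUSG00000086290) at chr4:132035905-132038762 (plus) of GRCm39. On the minus strand, *Snhg5* (ENSMUSG00000097195) lies at chr9:88377321-88405615, *Snhg6* (ENSMUSG00000098234) at chr1:9926809-10014504, *Snhg8* (ENSMUSG00000104960) at chr3:123301192-123302578, *Snhg15* (ENSMUSG00000085156) at chr11:6473829-6478870, *Snhg18* (ENSMUSG00000096956) at chr15:32196469-32245549 and *Snhg3* (ENSMUSG00000085241) at chr4:132075325-132080997. The snoRNAs inside these hosts came to 33 annotated identifiers in GENCODE M39 of the GRCm39 assembly, of which 10 lay in *Gas5*, 8 in *Snhg1* and 5 in *Snhg12*, with 2 each in *Snhg3*, *Snhg4* and *Snhg5* and 1 each in *Snhg6*, *Snhg8*, *Snhg15* and *Snhg18*. *Snord80* in *Gas5* and *Snora16a* in *Snhg12* each stand under overlapping duplicate identifiers, so identifiers outnumber snoRNAs in those hosts. Examples for 8 of the hosts are printed below from the genome, 5′ to 3′ on the host's strand, to show what each host carries. In the C/D box sequences, capitals mark the letters TGATGA, searched for as box C, and CTGA, searched for as box D. In the H/ACA box sequences, capitals mark ACA near the 3′ end. *Snora9* of *Snhg15* lies at chr11:6478033-6478165 (minus strand), *Snora24* of *Snhg8* at chr3:123301586-123301715 (minus), *Snora61* of *Snhg12* at chr4:132037551-132037680 (plus) and *Snord99* of *Snhg12* at chr4:132038002-132038075 (plus). *Snord87* of *Snhg6* lies at chr1:10012688-10012774 (minus), *Snord47* of *Gas5* at chr1:160865652-160865728 (plus) and *Gm22744* of *Snhg1* at chr19:8702456-8702520 (plus). *Snord50a* of *Snhg5* lies at chr9:88403582-88403653 (minus), its near-copy *Snord50b* at chr9:88403850-88403921 (minus) and *Snord123* of *Snhg18* at chr15:32241999-32242069 (minus).
Snora9: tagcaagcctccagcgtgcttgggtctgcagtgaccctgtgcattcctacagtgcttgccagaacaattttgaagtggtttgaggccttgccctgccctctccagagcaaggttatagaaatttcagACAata
Snora24: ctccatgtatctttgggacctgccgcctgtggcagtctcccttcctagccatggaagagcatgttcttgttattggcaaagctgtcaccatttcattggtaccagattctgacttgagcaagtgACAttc
Snora61: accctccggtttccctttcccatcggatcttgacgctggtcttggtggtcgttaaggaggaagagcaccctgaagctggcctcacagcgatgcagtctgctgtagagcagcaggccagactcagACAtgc
Snord99: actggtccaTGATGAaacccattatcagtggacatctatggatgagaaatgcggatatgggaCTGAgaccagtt
Snord87: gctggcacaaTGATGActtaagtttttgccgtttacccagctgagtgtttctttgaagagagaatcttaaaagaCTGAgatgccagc
Snord47: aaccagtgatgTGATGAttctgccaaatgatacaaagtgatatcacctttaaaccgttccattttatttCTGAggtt
Gm22744: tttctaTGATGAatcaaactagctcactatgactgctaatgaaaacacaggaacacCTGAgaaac
Snord50a: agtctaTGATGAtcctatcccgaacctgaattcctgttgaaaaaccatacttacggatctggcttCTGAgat
Snord50b: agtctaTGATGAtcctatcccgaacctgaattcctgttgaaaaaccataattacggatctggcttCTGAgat
Snord123: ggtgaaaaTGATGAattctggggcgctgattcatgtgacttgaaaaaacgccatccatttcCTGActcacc

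All 33 snoRNA identifiers are in the count table, and 31 of them had 0 counts in every library. The other 2 were *Snord123* with 23 counts and *Snord87* with 13 counts over the 36 libraries together. All but 1 of the 33 overlapped an exon of at least 1 annotated transcript of their host, and how the counting assigned reads in such overlaps is not given in the sources used here. The values below are therefore levels of the host transcripts, and no level of a snoRNA could be read from them.

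The start regions of the hosts are shown because the pyrimidine run at the start is the sequence feature that this gene class is known for. RefSeq start regions (GRCm38.p6) were present for 8 of the 10 hosts, and each matched the GRCm39 genome exactly, from which the coordinates were taken. Each line gives 20 bases before and 30 bases from the RefSeq start, and capitals mark the longest run of C and T that touches the stretch from 10 bases before the start to base 15.
Snhg1: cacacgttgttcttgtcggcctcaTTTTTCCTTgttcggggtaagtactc
Snhg12: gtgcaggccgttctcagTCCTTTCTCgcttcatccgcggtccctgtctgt
Snhg18: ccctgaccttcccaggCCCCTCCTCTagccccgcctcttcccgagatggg
Snhg8: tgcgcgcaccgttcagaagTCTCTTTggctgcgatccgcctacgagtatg
Snhg5: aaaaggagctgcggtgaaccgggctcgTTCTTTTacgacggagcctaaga
Gas5: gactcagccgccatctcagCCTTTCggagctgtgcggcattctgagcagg
Snhg15: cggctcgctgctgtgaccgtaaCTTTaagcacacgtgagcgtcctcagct
The *Snhg1* window is chr19:8700831-8700880 (plus strand), that of *Snhg12* chr4:132035969-132036018 (plus), that of *Snhg18* chr15:32244779-32244828 (minus) and that of *Snhg8* chr3:123301956-123302005 (minus). The *Snhg5* window is chr9:88404921-88404970 (minus), that of the second of 2 *Gas5* starts chr1:160862716-160862765 (plus) and that of *Snhg15* chr11:6478731-6478780 (minus). The run was 10 bases long in *Snhg18* and 9 in *Snhg1* and *Snhg12*, lengths reached by 7.79% and 10.7% of 32851 RefSeq start regions. It was 7 bases in *Snhg5* and *Snhg8*, reached by 22.3%, and 6 bases at this *Gas5* start, reached by 33.1%. The other *Gas5* start, not printed, had a run of 3 bases, reached by 87.6%, and the start of *Snhg3* one of 5 bases, reached by 50.1%. *Snhg15* had a run of 4 bases, under the median of 5 over all start regions. The printed RefSeq starts lay 84 (*Snhg12*), 110 (*Snhg15*), 532 (*Snhg1*), 593 (*Snhg8*), 665 (*Snhg5*), 741 (*Snhg18*) and 943 bases (*Gas5*) from the gene starts in GENCODE. Which start the myotubes use was not tested. On either strand of the 300-base regions (250 before and 50 from the start), the letters CACGTG were found in *Snhg15* alone among the 8 hosts and in 7.15% of all regions. The match in *Snhg15* began at base 12 counted from the RefSeq start. The letters TGACGTCA were found in *Gas5* and *Snhg15* and in 1.79% of all regions, and TGACGT, which they contain, in the same 2 hosts and in 7.51%. TGATGCAA, found in 0.895% of all regions, and a heat shock element of inverted GAA units with NN between them, found in 0.603%, were not seen in these windows of the 8.

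Library totals ranged from 17005079 to 24181167 counts on genes, and each library's mean correlation with the others of its group was between 0.976 and 0.991. *Tug1* ranged from 38.6 to 58.3 RPM (median 47.8) in Rest control and from 24.0 to 33.3 RPM (median 25.4) in Rest *Tug1* KD libraries. The ranges overlapped at EPS 0h, with 55.0 to 80.6 RPM (median 67.7) in control libraries and 29.5 to 61.9 RPM (median 42.2) after *Tug1* KD, and at EPS 3h, with 54.6 to 107 RPM (median 77.0) and 40.0 to 84.6 RPM (median 51.5). Its log2FC in *Tug1* KD was -0.83 (SE 0.171, FDR = 0.000915) at Rest, -0.57 (SE 0.169, FDR = 0.0178) at EPS 0h and -0.51 (SE 0.168, FDR = 0.0414) at EPS 3h, so *Tug1* was reduced but not absent. All 10 myotube markers passed the filter, and their summed level ranged from 14600 to 22816 RPM over all groups.

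Expressed per length of the canonical transcript (RPM per kilobase, RPKM), *Gas5* was the highest host in Rest control myotubes with 89.0 ± 27.0 RPKM (SD, n = 6), and it did not overlap the next gene in any library. *Gas5*, first described as a growth arrest-specific transcript, was followed by *Snhg1* with 31.1 ± 4.52 RPKM and *Snhg5* with 28.9 ± 3.59 RPKM, whose ranges overlapped. *Snhg8* came next with 17.2 ± 5.66 RPKM, then *Snhg15* with 12.8 ± 3.18, *Snhg18* with 11.1 ± 2.71, *Snhg12* with 9.12 ± 2.09, *Snhg4* with 7.53 ± 2.40 and *Snhg6* with 5.53 ± 0.929 RPKM. From *Snhg8* down, each gene's range overlapped that of the next. The canonical transcript of *Snhg12* is 1 exon of 2842 bases that contains its snoRNAs, while those of the other tested hosts have 2 to 11 exons. Its value per length is therefore not directly comparable with theirs. An exon of the canonical transcript of *Snhg15* also overlaps its snoRNA, *Snora9*. Only the place of *Gas5* at the top and of *Snhg4* at rank 8 was the same when the union of all annotated exons was taken as the length.

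*Snhg3*, which carries the H/ACA box snoRNAs *Snora73a* and *Snora73b*, had 0 counts in all 36 libraries. For reads assigned to *Snhg3*, this allows at most 0.124 to 0.176 RPM depending on the library (3 counts, counting error only). Of its 986 exon bases, 633 (64.2%) lie in exons of *Rcc1* on the same strand, and *Rcc1*, the nucleotide exchange factor of Ran, was at 37.1 RPM in Rest control libraries. Reads over the shared bases could not be told apart by gene, so the bound does not cover *Snhg3* reads from those bases. The second *Snhg4* identifier is a protein-coding readthrough model that runs into *Matr3*, and its group means lay between 0.0408 and 0.273 RPM, from 136 counts in all, so *Snhg4* below is the non-coding gene.

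**Figure D1:**
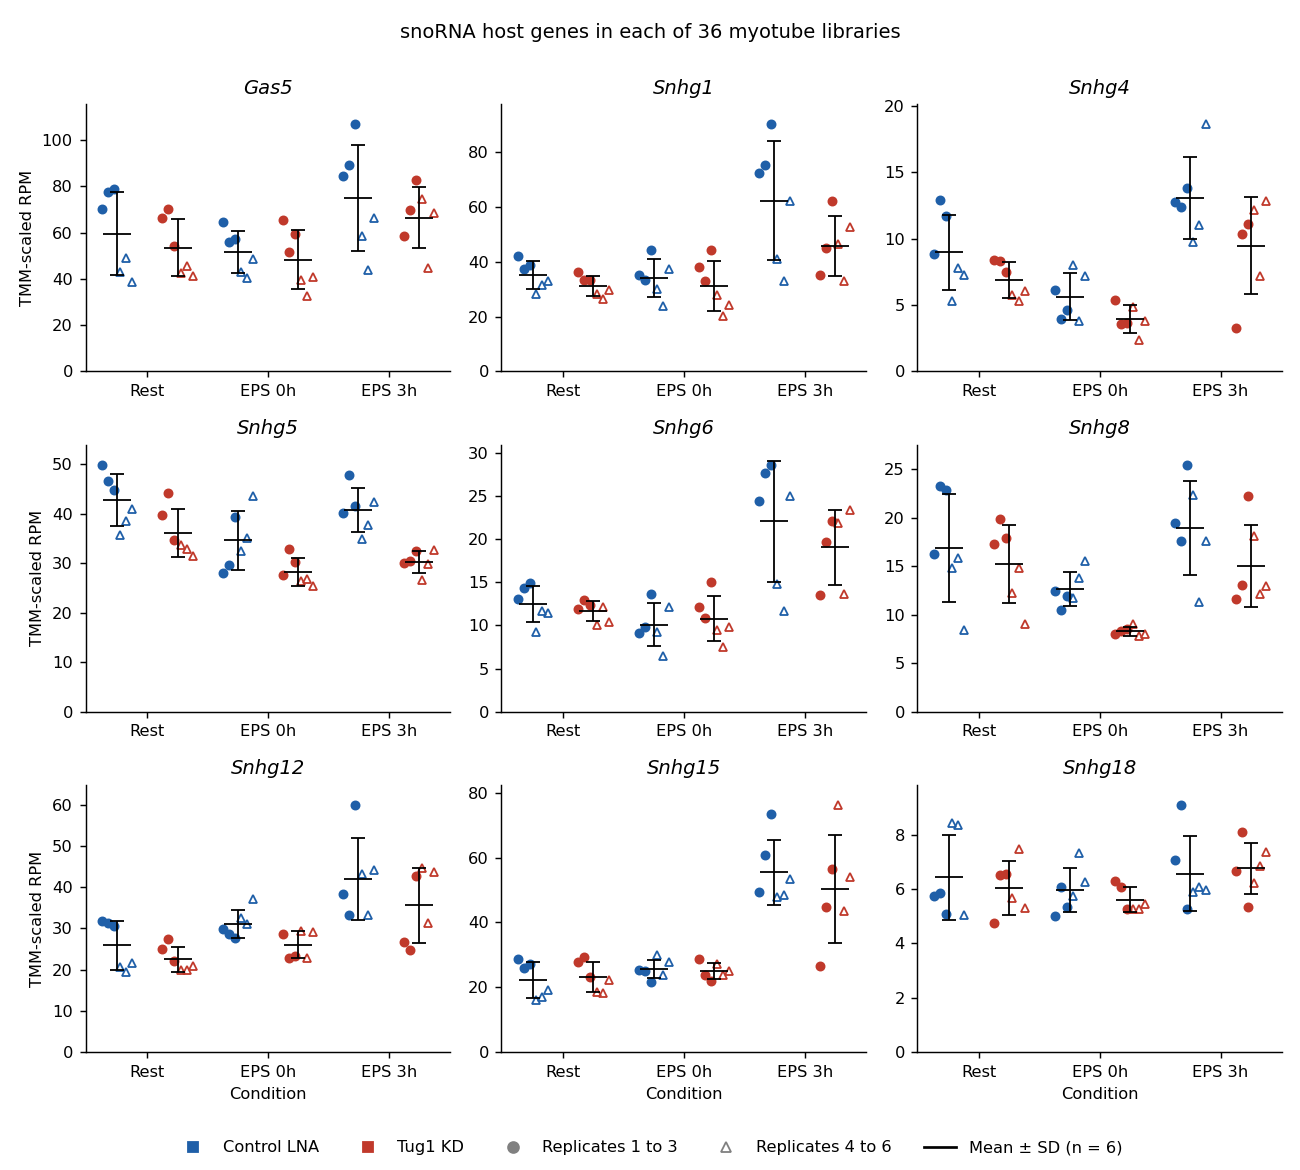
TMM-scaled RPM (y axis, linear from 0) of the 9 tested snoRNA host genes in each of the 36 libraries, by condition (x axis), with control LNA in blue and *Tug1* KD in red, filled circles for replicates 1 to 3, open triangles for replicates 4 to 6, and black marks for mean ± SD (n = 6). At EPS 3h the 6 control libraries of *Snhg15* sit between 47.7 and 73.5 RPM, all above the 16.1 to 28.7 RPM of Rest, while *Snhg18* stays between 4.75 and 9.10 RPM in every library.

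The comparison of EPS 3h with Rest asks which hosts differed after recovery from the contractions. The study describes a Rest group whose electrodes stayed in the medium as long as EPS lasted, and no unstimulated group kept for 3 h more. For EPS 3h against Rest or against EPS 0h, recovery and 3 h more of culture therefore cannot be told apart. In control myotubes 4 of the 9 tested hosts were called higher at an FDR under 0.05 (edgeR quasi-likelihood test, Benjamini-Hochberg over 13995 genes) and 0 lower, against 26.1% of all tested genes called higher and 25.9% lower (52.0% in either direction). In bulk RNA a larger share of cells that express a gene and more RNA per cell cannot be told apart. The 4 were *Snhg15*, *Snhg1*, *Snhg6* and *Snhg12*. In *Tug1* KD myotubes, which share no library with the former, 5 of 9 were called, against 26.2% of all genes higher and 25.9% lower (52.1%). All 4 hosts that were higher in control were among them, and *Snhg5* was lower. The median log2FC over the 9 hosts was 0.54 in control, beside -0.02 over all genes, and 0.46 in *Tug1* KD, beside -0.04.

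*Snhg15*, a host of 1 H/ACA box snoRNA whose transcript is known for a short half-life, changed most. Its counts ranged from 16.1 to 28.7 RPM (median 22.6) in the Rest control libraries and from 47.7 to 73.5 RPM (median 51.4) at EPS 3h. No EPS 3h library fell into the Rest range, and the mean went from 22.3 ± 5.56 to 55.5 ± 10.0 RPM (SD, n = 6), a 2.49-fold rise (log2FC = 1.31, SE 0.172, FDR = 6.11e-08). In *Tug1* KD myotubes the range was 18.1 to 29.4 RPM (median 22.8) at Rest and 26.4 to 76.3 RPM (median 49.5) at EPS 3h. There the ranges touched through 1 EPS 3h library, replicate 1, although all 6 EPS 3h libraries lay above the Rest mean, and the log2FC was 1.12 (SE 0.171, FDR = 1.16e-06). *Snhg15* was called in both arms under each of the 11 alternative analyses.

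*Snhg1*, host of 8 snoRNAs and long known as the U22 host gene, ranged from 28.3 to 42.1 RPM (median 35.2) in Rest control libraries and from 33.1 to 90.3 RPM (median 67.3) at EPS 3h. The ranges overlapped, with 5 of 6 EPS 3h libraries above the Rest mean, and the log2FC was 0.83 (SE 0.193, FDR = 0.000501). In *Tug1* KD myotubes *Snhg1* was 31.2 ± 3.75 RPM at Rest and 45.7 ± 10.9 RPM at EPS 3h (SD, n = 6), with a log2FC of 0.55 (SE 0.194, FDR = 0.0168). The call in *Tug1* KD was lost without the filter on low counts and when counts were scaled by library size alone (FDR = 0.0823, range over the alternatives 0.000367 to 0.111), a scaling that moved the median log2FC of all genes by -0.17 in control and by -0.16 in *Tug1* KD for EPS 3h against Rest.

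*Snhg6*, host of *Snord87*, ranged from 9.27 to 14.9 RPM (median 12.3) in Rest control libraries and from 11.7 to 28.6 RPM (median 24.7) at EPS 3h. It was higher in 5 of 6 EPS 3h libraries than the Rest mean, with a log2FC of 0.82 (SE 0.190, FDR = 0.000428). In *Tug1* KD it was 11.6 ± 1.16 RPM at Rest and 19.0 ± 4.37 RPM at EPS 3h, without overlap between the libraries (log2FC = 0.71, SE 0.191, FDR = 0.00202). *Snhg12*, host of the H/ACA box snoRNAs *Snora16a*, *Snora44* and *Snora61* and of *Snord99*, ranged from 19.4 to 31.9 RPM (median 26.1) in Rest control libraries and from 33.2 to 60.02 RPM (median 40.8) at EPS 3h, with no overlap. Its log2FC was 0.70 (SE 0.154, FDR = 0.000240) in control and 0.66 (SE 0.154, FDR = 0.000459) in *Tug1* KD. *Snhg12* and *Snhg15* were the 2 of 9 hosts without overlap between Rest and EPS 3h in control, against 28.9% of all tested genes, and *Snhg6* was the 1 of 9 in *Tug1* KD, against 29.8%.

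*Snhg5*, host of the paired C/D box snoRNAs *Snord50a* and *Snord50b*, was the host that was called lower at EPS 3h in *Tug1* KD. Its counts ranged from 31.5 to 44.3 RPM (median 34.2) at Rest and from 26.6 to 32.7 RPM (median 30.3) at EPS 3h, with overlap, and the log2FC was -0.25 (SE 0.103, FDR = 0.0401). It was called in 8 of the 11 alternatives, with a log2FC from -0.42 to -0.14 (FDR 0.00118 to 0.348), and lost by DESeq2, with the compared groups alone and in replicates 4 to 6. In control it was 42.8 ± 5.32 RPM at Rest and 40.8 ± 4.44 RPM at EPS 3h, a log2FC of -0.07 (95% interval from the normal approximation -0.27 to 0.13). Whether the 2 arms differed is given with the interaction below.

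The other 4 hosts did not pass at EPS 3h against Rest in either arm. For *Snhg4*, host of *Snora74a*, the log2FC was 0.54 (95% interval 0.07 to 1.02, FDR = 0.0582) in control and 0.46 (-0.02 to 0.95, FDR = 0.113) in *Tug1* KD. For *Gas5* it was 0.33 (-0.06 to 0.73, FDR = 0.169) and 0.32 (-0.08 to 0.71, FDR = 0.191). In control, where same-numbered libraries deviated from their group means together, a fit with the replicate number as a block called both. It gave FDR = 0.0371 for *Snhg4* (range over the alternatives 0.00970 to 0.529) and FDR = 0.0180 for *Gas5* (range 0.0154 to 0.531). Of the 11 alternatives in control, 6 called *Snhg4* and 2 called *Gas5*. For *Snhg8*, host of *Snora24*, the values were 0.17 (-0.22 to 0.55) and -0.02 (-0.40 to 0.37), and for *Snhg18*, host of *Snord123*, 0.03 (-0.25 to 0.31) and 0.16 (-0.12 to 0.44). Under library size scaling the sign turned for *Snhg8* in control (-0.0083) and for *Snhg18* in control (-0.14) and in *Tug1* KD (-0.0030).

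**Figure D2:**
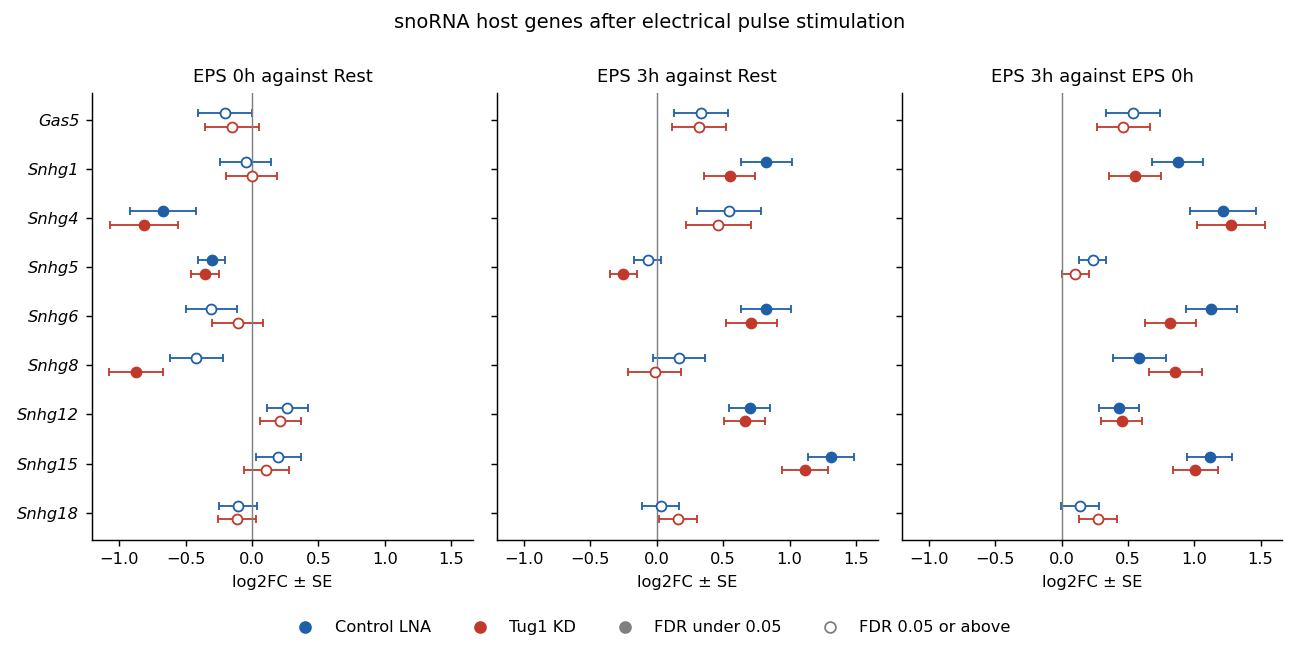
log2FC ± SE (x axis) of the 9 tested snoRNA host genes (y axis) for EPS 0h against Rest, EPS 3h against Rest and EPS 3h against EPS 0h, in control (blue) and *Tug1* KD (red) myotubes, with filled points at an FDR under 0.05. Both arms are filled for *Snhg1*, *Snhg6*, *Snhg12* and *Snhg15* in the middle panel, where *Snhg5* is filled to the left in *Tug1* KD, and every point in the right panel is above 0.

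At EPS 0h, directly after the contractions, few hosts were called over all 6 replicates, and the control calls differed between the replicate sets described further on. At EPS 0h against Rest in control, 0 of 9 hosts were called higher, against 20.5% of all tested genes, and 2 lower, against 18.4% (38.9% in either direction). In *Tug1* KD 0 were called higher, against 24.4%, and 3 lower, against 21.2% (45.6%), and these 3 included both of the hosts called in control. In control the count of lower hosts lay near the share of all genes. No host was without overlap between Rest and EPS 0h in either arm, against 22.0% of all genes in control and 22.5% in *Tug1* KD.

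*Snhg4* ranged from 5.32 to 12.9 RPM (median 8.30) in Rest control libraries and from 3.77 to 8.01 RPM (median 5.37) at EPS 0h, a log2FC of -0.67 (SE 0.248, FDR = 0.0294). All 6 EPS 0h libraries lay under the Rest mean. In *Tug1* KD it went from 6.87 ± 1.35 to 3.91 ± 1.06 RPM (SD, n = 6), a log2FC of -0.81 (SE 0.255, FDR = 0.00927). *Snhg5* ranged from 35.8 to 49.96 RPM (median 42.9) in Rest control libraries and from 28.0 to 43.6 RPM (median 33.8) at EPS 0h, with a log2FC of -0.30 (SE 0.103, FDR = 0.0181), and -0.36 (SE 0.103, FDR = 0.00521) in *Tug1* KD. *Snhg8* ranged from 8.98 to 19.9 RPM (median 16.1) in Rest *Tug1* KD libraries and from 7.81 to 9.002 RPM (median 8.18) at EPS 0h. Those 2 ranges met only at their edge, and the log2FC was -0.87 (SE 0.202, FDR = 0.000600). In control the log2FC of *Snhg8* was -0.42 (95% interval -0.81 to -0.03, FDR = 0.0914), and it did not pass.

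The 4 hosts that were higher at EPS 3h in both arms were not called at EPS 0h over all 6 replicates, although *Snhg12* and *Snhg15* were called higher within replicates 4 to 6, as given with the replicate sets. At EPS 0h against Rest the log2FC of *Snhg15* was 0.20 (95% interval -0.14 to 0.53) in control and 0.11 (-0.23 to 0.44) in *Tug1* KD, that of *Snhg1* -0.05 (-0.43 to 0.33) and -0.0020 (-0.38 to 0.38), that of *Snhg6* -0.31 (-0.68 to 0.07) and -0.11 (-0.48 to 0.27), and that of *Snhg12* 0.27 (-0.04 to 0.57) and 0.21 (-0.09 to 0.51). These comparisons use the same Rest libraries as those of EPS 3h.

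Between EPS 0h and EPS 3h, 6 of the 9 hosts were called higher in control, against 9.67% of all tested genes, and 6 in *Tug1* KD, against 8.59%, and the same 6 genes passed in both arms. None was lower, against 6.88% and 7.13% of all genes (16.6% and 15.7% in either direction). They were *Snhg1*, *Snhg4*, *Snhg6*, *Snhg8*, *Snhg12* and *Snhg15*. *Snhg4* rose from 5.60 ± 1.77 to 13.1 ± 3.08 RPM in control, 2.32-fold and without overlap (log2FC = 1.22, SE 0.248, FDR = 0.000486), and by a log2FC of 1.28 (SE 0.255, FDR = 0.000364) in *Tug1* KD. *Snhg6* ranged from 6.50 to 13.6 RPM (median 9.48) at EPS 0h and from 11.7 to 28.6 RPM (median 24.7) at EPS 3h in control, a 2.19-fold rise (log2FC = 1.13, SE 0.192, FDR = 4.14e-05), and its log2FC in *Tug1* KD was 0.82 (FDR = 0.00220). *Snhg8* rose by 0.59 (SE 0.198, FDR = 0.0371) in control and by 0.86 (SE 0.202, FDR = 0.00242) in *Tug1* KD, where its libraries did not overlap. The log2FC of *Snhg15* was 1.12 (FDR = 8.37e-06) in control and 1.01 (FDR = 3.78e-05) in *Tug1* KD, that of *Snhg1* 0.87 (FDR = 0.00120) and 0.55 (FDR = 0.0473), and that of *Snhg12* 0.43 (FDR = 0.0466) and 0.45 (FDR = 0.0396). Libraries did not overlap for 2 of 9 hosts in control (*Snhg4* and *Snhg15*, against 7.29% of all genes) and for 1 of 9 in *Tug1* KD (*Snhg8*, against 6.87%).

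For *Gas5*, *Snhg5* and *Snhg18* the EPS 3h to EPS 0h differences did not pass, at 0.54 (95% interval 0.14 to 0.93, FDR = 0.0642), 0.23 (0.03 to 0.44, FDR = 0.126) and 0.14 (-0.15 to 0.42, FDR = 0.629) in control. With the replicate block in *Tug1* KD, where same-numbered libraries deviated together, *Gas5* passed (log2FC = 0.50, FDR = 0.00187, range over the alternatives 0.00183 to 0.274). Some of the 6 calls rested on the analysis. In control *Snhg12* was called in 4 of the 11 alternatives (FDR 0.0298 to 0.226) and *Snhg8* in 7 (0.00675 to 0.409), and limma-voom called neither (FDR = 0.0591 and FDR = 0.0633). In *Tug1* KD *Snhg12* was called in 5 of 11 (0.0106 to 0.334) and *Snhg1* in 6 (0.000661 to 0.274).

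The replicates fell into 2 sets, numbers 1 to 3 and 4 to 6, and the hosts differed between them. *Gas5* ranged from 70.4 to 78.8 RPM in replicates 1 to 3 and from 38.5 to 49.2 RPM in replicates 4 to 6 of the Rest control group, and all of the former lay above all of the latter in 5 of the 6 groups. The same held for *Snhg1* in 4 of 6 groups and for *Snhg5* in 3, and for *Snhg18* in 0. Which wells belong to which of the study's experiments is not given in the labels, and a well's set and its experiment cannot be told apart here.

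The responses were also computed within each set, and the difference between sets was not tested. Of the 4 hosts called at EPS 3h against Rest in both arms, each kept its direction in each set and arm. In control, the first set (1 to 3) and the second (4 to 6) gave a log2FC of 1.18 and 1.52 for *Snhg15*, 1.02 and 0.55 for *Snhg1*, 0.95 and 0.67 for *Snhg6*, and 0.50 and 0.97 for *Snhg12*. In *Tug1* KD the values were 0.69 and 1.56 for *Snhg15*, 0.48 and 0.65 for *Snhg1*, 0.59 and 0.85 for *Snhg6*, and 0.36 and 0.98 for *Snhg12*. At EPS 0h against Rest in control the sets called different hosts. Replicates 1 to 3 called 4 hosts, all lower, and gave -1.20 (FDR = 0.00508) for *Snhg4*, -0.55 (FDR = 0.00213) for *Snhg5*, -0.85 (FDR = 0.00293) for *Snhg8* and -0.35 (FDR = 0.0438) for *Gas5*. Replicates 4 to 6 gave -0.09 (FDR = 0.858), -0.05 (FDR = 0.766), 0.07 (FDR = 0.868) and 0.02 (FDR = 0.959) for these genes. The 2 hosts called in replicates 4 to 6 were higher, *Snhg12* at 0.71 (FDR = 0.000788) and *Snhg15* at 0.65 (FDR = 0.00389), beside -0.13 (FDR = 0.630) and -0.19 (FDR = 0.473) in replicates 1 to 3. *Snhg12* was also called higher in replicates 4 to 6 of *Tug1* KD, at 0.42 (FDR = 0.0289) beside 0.03 in the other set. The lower hosts of *Tug1* KD at EPS 0h had values of -0.93 and -0.65 for *Snhg4*, -0.38 and -0.32 for *Snhg5* and -1.13 and -0.55 for *Snhg8*. From EPS 0h to EPS 3h in control the 2 sets gave 1.43 and 1.04 for *Snhg4*, 1.33 and 0.89 for *Snhg6*, 1.37 and 0.87 for *Snhg15*, 1.10 and 0.58 for *Snhg1*, 0.86 and 0.33 for *Snhg8*, and 0.63 and 0.26 for *Snhg12*. In *Tug1* KD they gave 0.98 and 1.56 for *Snhg4*, 0.54 and 1.14 for *Snhg6*, 0.78 and 1.20 for *Snhg15*, 0.31 and 0.88 for *Snhg1*, 0.91 and 0.80 for *Snhg8*, and 0.33 and 0.56 for *Snhg12*.

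**Figure D3:**
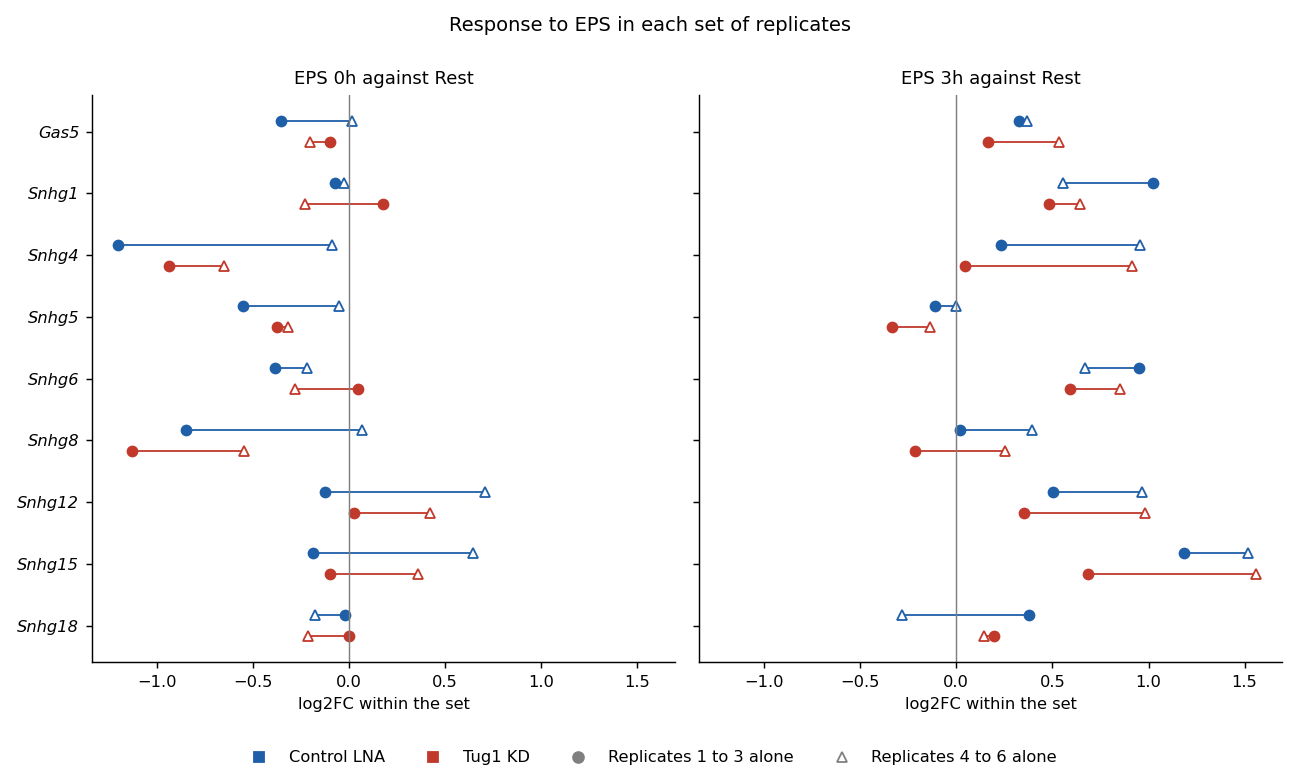
log2FC within replicates 1 to 3 (filled circles) and within replicates 4 to 6 (open triangles) for the 9 hosts (y axis), at EPS 0h (left) and EPS 3h (right) against Rest, in control (blue) and *Tug1* KD (red) myotubes, with a line joining the 2 sets. *Snhg15* lies right of 0 in both sets at EPS 3h, and the fall of *Snhg4* at EPS 0h in control is -1.20 in one set and -0.09 in the other.

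*Tug1* KD was compared with control at each condition to ask whether the loss of *Tug1* moved the hosts. At Rest 0 of 9 hosts were called by edgeR (1 at an unadjusted p under 0.05, 0 by DESeq2 and 0 by limma-voom), against 5.54% of all tested genes higher and 4.47% lower (10.0% in either direction). The log2FC was negative for 8 of the 9 and ranged from -0.38 for *Snhg4* to 0.06 for *Snhg15*, with a median of -0.16 beside -0.03 over all genes, and no host was without overlap, against 8.07% of all genes. At EPS 0h 2 of 9 were lower, against 6.07% of all genes, and 0 higher, against 8.25% (14.3%). At EPS 3h 1 of 9 was lower, against 5.11%, and 0 higher, against 6.38% (11.5%). With the replicate block at EPS 3h, where same-numbered libraries deviated together, 2 hosts were called.

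*Snhg5* was lower in *Tug1* KD at both time points after EPS. At EPS 3h it ranged from 34.9 to 47.8 RPM (median 40.9) in control and from 26.6 to 32.7 RPM (median 30.3) in *Tug1* KD libraries. The groups did not overlap, as for 4.62% of all tested genes, and the log2FC was -0.43 (SE 0.103, FDR = 0.00463), with -0.48 in replicates 1 to 3 and -0.37 in replicates 4 to 6. At EPS 0h it ranged from 28.0 to 43.6 RPM (median 33.8) in control and from 25.4 to 32.8 RPM (median 27.2) in *Tug1* KD, with overlap and a log2FC of -0.30 (SE 0.103, FDR = 0.0485, range over the alternatives 0.00440 to 0.814), of -0.08 in replicates 1 to 3 and -0.50 in replicates 4 to 6. At Rest the log2FC was -0.24 (95% interval -0.44 to -0.04, FDR = 0.142).

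*Snhg8* ranged from 10.5 to 15.5 RPM (median 12.2) in control and from 7.81 to 9.002 RPM (median 8.18) in *Tug1* KD libraries at EPS 0h. The groups did not overlap, as for 7.94% of all tested genes, and the log2FC was -0.61 (SE 0.202, FDR = 0.0375), with -0.46 in replicates 1 to 3 and -0.72 in replicates 4 to 6. It was -0.15 (95% interval -0.54 to 0.23) at Rest and -0.34 (-0.72 to 0.05) at EPS 3h. At EPS 3h *Snhg1* had a mean of 62.4 ± 21.7 RPM in control against 45.7 ± 10.9 RPM in *Tug1* KD (SD, n = 6), a log2FC of -0.45 with FDR = 0.138. The host added by the replicate block was *Snhg1* (log2FC = -0.40, FDR = 0.0176, range over the alternatives 0.00982 to 0.919), at -0.74 in replicates 1 to 3 and -0.05 in replicates 4 to 6. Limma-voom called neither *Snhg5* (FDR = 0.0599) nor *Snhg8* (FDR = 0.0729, range over the alternatives 0.00193 to 0.225) at EPS 0h.

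**Figure D4:**
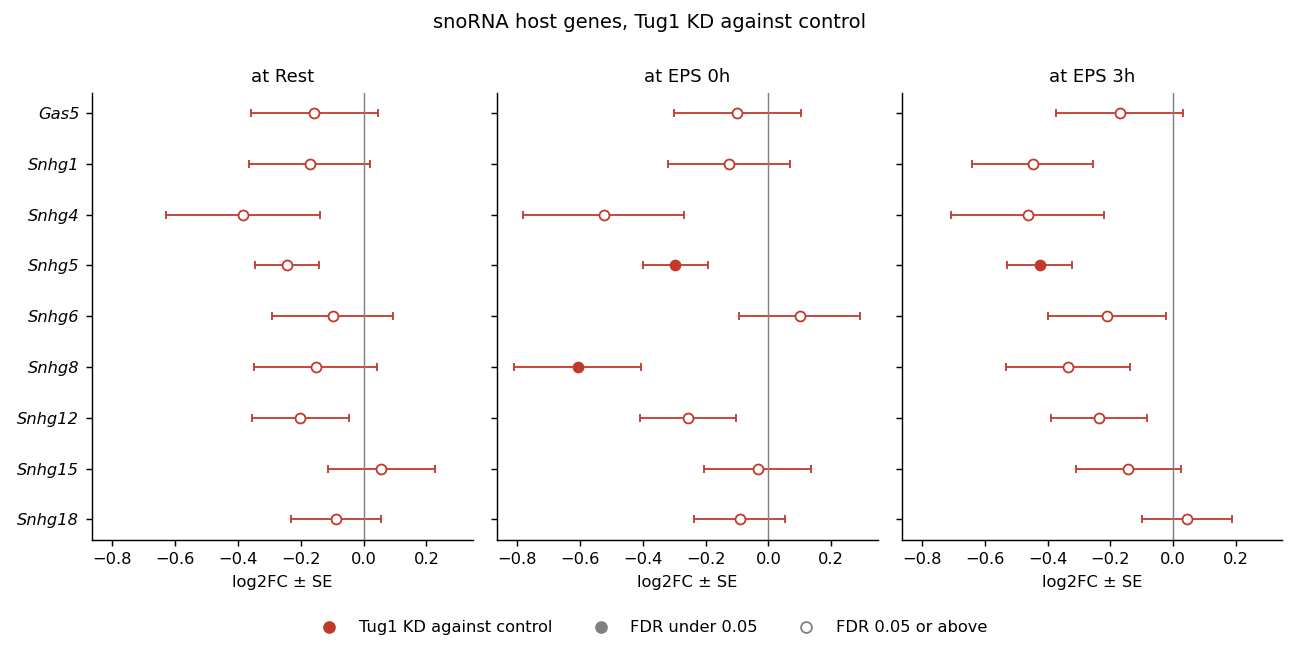
log2FC ± SE (x axis) of *Tug1* KD against control for the 9 tested snoRNA host genes (y axis) at Rest, EPS 0h and EPS 3h (n = 6 libraries per group), with filled points at an FDR under 0.05. The filled points are *Snhg5* (-0.30) and *Snhg8* (-0.61) at EPS 0h and *Snhg5* (-0.43) at EPS 3h.

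The response to EPS was then compared between the arms by the interaction of EPS and *Tug1* KD. No host was called at either time point by edgeR, and none had an unadjusted p under 0.05, against 0.0% of all tested genes called at EPS 0h and 0.00715% at EPS 3h (324 and 430 genes at an unadjusted p under 0.05). The largest differences in fold change were those of *Snhg8* at EPS 0h (-0.45, 95% interval -1.01 to 0.10) and of *Snhg1* at EPS 3h (-0.28, -0.81 to 0.26). For *Snhg5* the difference was -0.05 (-0.34 to 0.23) at EPS 0h and -0.18 (-0.47 to 0.10) at EPS 3h, and for *Snhg15* -0.09 (-0.56 to 0.38) and -0.20 (-0.67 to 0.27). A smaller response of *Snhg15* in *Tug1* KD, of up to 0.67 on the log2 scale, thus lay inside the interval.

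The hosts varied in how closely they moved together. Over the 36 libraries the Pearson correlation of log2(TMM-scaled CPM + 0.5) had a median of 0.576 over the 36 pairs of tested hosts, from -0.103 to 0.930, and a median of 0.466 with the group means taken out, when 29 of 36 pairs stayed positive. These values share libraries and include the difference between the replicate sets. *Snhg1* and *Snhg6* were the closest pair (0.930, and 0.927 within groups), followed by *Gas5* with *Snhg1* (0.862) and *Snhg12* with *Snhg15* (0.857).

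Among 10617 other genes whose mean reached 5 RPM, those most like each host over the 36 libraries were named by the same correlation. For *Snhg1* they included *Gnl3* (0.952), the nucleolar GTPase nucleostemin. For *Snhg15* they were *Llph* (0.932) and *Thoc6* (0.911), and for *Snhg6* *Zwint* (0.920) and *S1pr3* (0.916). *Snhg8* was closest to *Rpl22l1* (0.916), a ribosomal protein paralog, and to *Zfas1* (0.894), itself a snoRNA host. *Snhg12* was closest to *Ubb* (0.883), a polyubiquitin gene, and *Nudc* (0.869), *Gas5* to *Krt31* (0.857) and *Snrpa1* (0.851), *Snhg4* to *Mir17hg* (0.863) and *Txnrd1* (0.844), and *Snhg5* to *Pcgf6* (0.842) and *Magohb* (0.823). *Snhg18* had no close match, at 0.632 with *Atox1* and 0.587 with *Cers5*.

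Of the 10 hosts, 8 overlap another gene in the annotation, and the strand setting of the counting is not given in the sources used here. *Slc3a2*, an amino acid transporter subunit, starts 789 bases from the annotated start of *Snhg1* on the other strand and overlaps it. At EPS 3h against Rest in control its log2FC was 0.14 (FDR = 0.474) beside 0.83 for *Snhg1*, and at EPS 0h 0.41 (FDR = 0.0337) beside -0.05. *Zbtb37* overlaps *Gas5* on the other strand, and at EPS 3h in control it had a log2FC of -0.08 (FDR = 0.769) beside 0.33 for *Gas5*. *Sema5a* overlaps *Snhg18* on the other strand and had 0.38 (FDR = 0.0330) beside 0.03, and *Sgk3* overlaps *Snhg6* on the other strand and had 0.57 (FDR = 0.0400) beside 0.82. *Matr3*, which the *Snhg4* readthrough model overlaps on the same strand, was at 60.03 RPM at Rest and 132 RPM at EPS 3h in control (log2FC = 1.14, FDR = 7.71e-05), and 0.63 (FDR = 0.0256) at EPS 0h, where *Snhg4* fell. How far reads of these neighbours enter the hosts' counts was not tested.

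The other genes of the snoRNA pathway were counted by list, beside the 26.1% of all genes higher and 25.9% lower at EPS 3h against Rest in control. Of 7 other non-coding snoRNA hosts tested, 2 were higher and 0 lower, and the 2 were *Snhg16* (a mean of 12.3 to 27.4 RPM, log2FC = 1.16) and *Dancr* (3.32 ± 1.31 to 7.59 ± 3.30 RPM, log2FC = 1.19). At EPS 0h against Rest in control, where 20.5% of all genes were higher and 18.4% lower, 1 of the 7, *Snhg16*, was higher and 4 were lower (*Snhg17* at -0.63, *Zfas1* at -0.55, *Dancr* at -0.99 and *Epb41l4aos* at -0.94). Of 33 protein-coding snoRNA hosts, mostly ribosomal protein and translation factor genes, 14 were higher and 0 lower at EPS 3h, with a median log2FC of 0.25, and the largest rises were those of the chaperones *Hspa9* (1.06) and *Hspa8* (0.84).

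The proteins that work with snoRNAs were counted in the same way. Of 8 core snoRNP proteins 3 were higher and 0 lower, led by *Nop58* (97.9 ± 21.1 to 205 ± 46.7 RPM, log2FC = 1.07), which binds C/D box snoRNAs, and *Dkc1* (0.51), the pseudouridine synthase dyskerin. Of 11 assembly factors 5 were higher and 1 lower. *Shq1* (1.497) and *Naf1* (0.86), which assist H/ACA particle assembly, were among the former, and the latter was *Coil* (-0.94), the Cajal body scaffold coilin. Of 29 ribosome biogenesis factors and RNA polymerase I genes 14 were higher and 1 lower, with *Utp15* (0.84) and *Utp4* (0.81) in front and *Imp3* (-0.47) as the lower gene.

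In further lists, the counts at EPS 3h against Rest in control lay near the 26.1% higher and 25.9% lower of all genes for the first 2. Whether their genes act on the host transcripts was not tested. Of 18 nonsense-mediated decay factors 4 were higher and 5 lower, with *Smg1* (0.81) and *Magoh* (0.76) against *Casc3* (-0.72) and *Smg9* (-0.44). Of 16 mTOR and terminal oligopyrimidine mRNA regulators 4 were higher and 4 lower, with *Eif4e* (1.07) and *Larp4* (0.79) against *Eif4ebp2* (-0.47) and *Tsc1* (-0.36). Of 12 tested MYC family and ATF4 pathway genes 5 were higher and 3 lower, with *Mxd1* (1.20) and *Asns* (0.63) against *Mnt* (-1.14) and *Trib3* (-0.86). Between EPS 0h and EPS 3h in control, beside 9.67% of all genes higher and 6.88% lower, 3 of 7 other non-coding hosts, 5 of 33 protein-coding hosts, 2 of 8 core proteins, 5 of 11 assembly factors and 7 of 29 biogenesis factors were higher and 0 of each lower. The lists had fewer calls in *Tug1* KD for all but the other non-coding hosts, where 4 of 7 were higher, with 1 of 33, 1 of 8, 2 of 11 and 0 of 29 higher and 0 of each lower, beside 8.59% and 7.13% of all genes. At EPS 3h against Rest in *Tug1* KD, beside 26.2% higher and 25.9% lower, 1 of 7, 7 of 33, 2 of 8, 5 of 11 and 7 of 29 were higher, and 2 assembly factors and 1 biogenesis factor were lower. No gene of these 5 lists was called for the interaction with *Tug1* KD. In *Tug1* KD against control at EPS 3h, beside 6.38% higher and 5.11% lower, 0 of the 7 other non-coding hosts were called, 2 of 33 protein-coding hosts were lower, 2 of 11 assembly factors were lower, 4 of 29 biogenesis factors were lower and 1 higher, 3 of 18 nonsense-mediated decay factors were higher and 3 lower, and 4 of 16 mTOR regulators were higher. None of the 8 core proteins or the 12 MYC family and ATF4 pathway genes was called there.

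**Figure D5:**
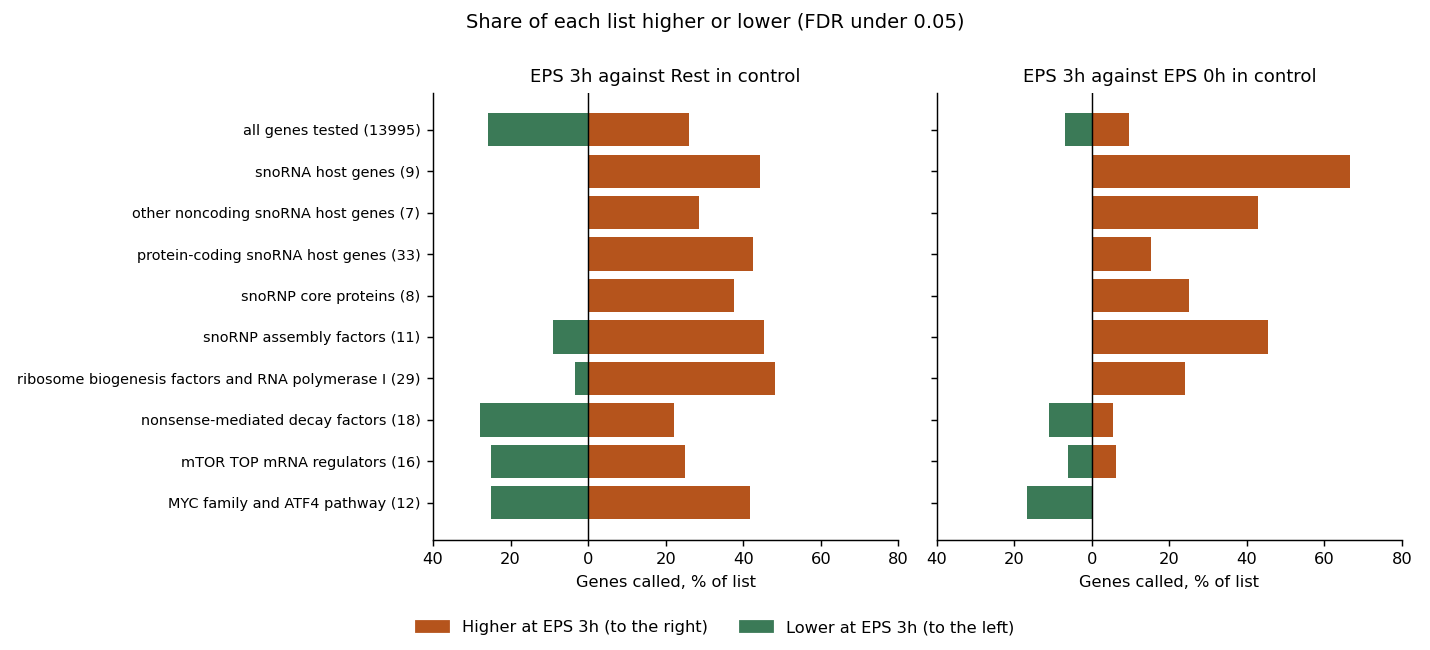
Share of the tested genes of each list (number tested in brackets) called higher (orange, to the right) or lower (green, to the left) at an FDR under 0.05, in percent (x axis), at EPS 3h against Rest and against EPS 0h in control myotubes. Of the snoRNA host genes 4 of 9 and 6 of 9 are to the right and 0 to the left, beside 26.1% and 9.67% of all 13995 genes to the right.

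Markers of other cell types were low but moved with the conditions. The summed level of the 3 endothelial markers ranged from 0.523 to 1.06 RPM in Rest control and from 2.94 to 9.13 RPM in EPS 3h control libraries, that of the 3 adipocyte markers from 0.0462 to 0.209 and from 1.28 to 2.54 RPM, that of the 3 fibroblast markers from 17.5 to 24.2 and from 9.67 to 12.5 RPM, and that of the 3 macrophage markers from 2.91 to 5.44 and from 2.69 to 3.60 RPM. The 5 myoblast and cycling markers summed to 114 to 155 RPM and to 107 to 162 RPM. This sum hides single genes that moved at EPS 3h against Rest in control. There *Mki67* (log2FC = 0.41) was called higher, and *Pax7* (-0.62) and *Ccnb1* (-0.42) lower. Of the 10 myotube markers, *Myod1* (-0.50) was called lower and 0 higher. Of all tested genes, 26.1% were higher and 25.9% lower in that comparison. In *Tug1* KD libraries the fibroblast sum ranged from 11.6 to 16.7 RPM at Rest and from 6.23 to 8.50 RPM at EPS 0h, without overlap with the control range at Rest or with the 10.9 to 12.4 RPM of EPS 0h control, and from 5.58 to 10.1 RPM at EPS 3h, with overlap. The macrophage sum was 1.56 to 2.24 RPM in *Tug1* KD at Rest and 1.63 to 2.27 RPM at EPS 3h, both without overlap with control, and 1.61 to 3.17 RPM at EPS 0h against 2.53 to 3.38 RPM in control, with overlap. None of the markers was at 0 in all 36 libraries, and none of the adipocyte markers passed the filter. The part of these shifts in the differences between conditions and between *Tug1* KD and control was not tested.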

How the data were processed

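RNA was measured in 36 stranded poly-A libraries read as 150-bp pairs. The authors trimmed reads with fastp 0.14.1, checked them with FastQC 0.11.7, aligned them to GRCm39 with STAR 2.5 and deposited raw counts per gene. The unit used here is these counts, and the strand setting of the counting is not given in the sources used here. Groups and replicate numbers came from the sample labels. The 1492 identifiers without a gene name held 0.0327% of the counts.

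Counts were tested with edgeR 4.0.16 (R 4.3.3) by the quasi-likelihood method with TMM scaling, over the 13995 genes that reached 1 RPM in 12 or more libraries, in a fit of all 6 groups, with Benjamini-Hochberg FDR under 0.05. Limma-voom 3.58.1 (the study's test), DESeq2 1.42.0, other scalings and filters, a replicate block, a set term, each set of 3 replicate numbers alone and the compared groups alone were the 11 alternatives. The code was tested on simulated counts. RPM are edgeR's counts per library size after TMM scaling, ± is the SD, and intervals are normal approximations at 95% from the SE. The reported fit had no term for the replicate sets, so p-values measure the spread between wells together with that between the sets. The filter and the floors use library totals without TMM scaling, and floors cover counting error only.

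Same-numbered libraries deviated from their group means together (every one of 6 correlations over 0.1) for Tug1 KD at EPS 0h (lowest 0.626) and at EPS 3h (0.217). In control they did so between Rest and either time point (0.228 for EPS 0h, 0.127 for EPS 3h), and in Tug1 KD between EPS 0h and Rest (0.165) and between both EPS groups (0.174). They did not in the other comparisons (lowest -0.0962 to 0.0724). Libraries of different number within a set were not compared, so the check cannot tell pairing of wells from the difference between the sets. No pair of libraries agreed within sampling noise (chi-square per degree of freedom at least 4.42).

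The hosts, lists and markers were chosen with earlier results of these data known. Named by rule were all hosts, Tug1, the 2 genes most correlated with each host (mean of at least 5 RPM), overlapping genes or genes that start within 1000 bases, and per list up to 2 called genes with the largest rise and fall at EPS 3h against Rest in control. Some genes that these rules name are not reported here. The other non-coding hosts called at EPS 0h were named after their values were seen. Annotation was GENCODE M39, in which 54749 of 55416 identifiers were found. The study names an Ensembl release of GRCm39 as its reference. Lengths, exon overlaps and neighbours given here come from M39 and may differ from the gene models behind the counts.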

Additional observations from a re-analysis of the deposited data

How the results depend on the processing

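Of 891 recomputed values (11 alternatives for each of 81 log2FC of the 9 hosts), 785 kept their direction and side of the threshold, 46 lost the call, 28 gained it and 32 changed sign, and none of the 32 was called in either analysis. The number of hosts called in Tug1 KD against control at EPS 0h, 2 as reported, was 0 by limma-voom, without the filter and in replicates 1 to 3, and 1 with a filter of 10 counts in 6 libraries, with the compared groups alone and in replicates 4 to 6. At EPS 3h it was 1 as reported and 2 in replicates 1 to 3 and with the replicate block. The block gained 6 calls and lost 0 over all comparisons, and it changed no call other than those 6. Of them, 2 were on Gas5 where same-numbered libraries did not all deviate together, in Tug1 KD at EPS 3h against Rest and in control at EPS 3h against EPS 0h. The set term gained 5 calls and lost 0. At EPS 0h against Rest in control the count was 2 as reported, 1 without the filter and with the compared groups alone, and 4 in replicates 1 to 3. In replicates 4 to 6 it was also 2, but these were *Snhg12* and *Snhg15*, called higher, and neither of the reported hosts. From EPS 0h to EPS 3h it was 6 as reported in each arm, 3 in control replicates 4 to 6 and 2 in Tug1 KD replicates 1 to 3.

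The log2FC that changed sign were as follows. In replicates 1 to 3 they were, for Tug1 KD, *Snhg15* (-0.026) and *Snhg18* (0.093) at Rest, *Gas5* (0.0063), *Snhg15* (0.064), *Snhg18* (0.11) and *Snhg1* (0.049) at EPS 0h and *Snhg18* (-0.089) at EPS 3h, and for EPS 0h against Rest *Snhg12* (-0.13) and *Snhg15* (-0.19) in control and *Snhg6* (0.047), *Snhg15* (-0.098) and *Snhg1* (0.18) in Tug1 KD. In replicates 4 to 6 they were, for Tug1 KD, *Snhg6* at Rest (0.0081) and EPS 0h (-0.057), and *Snhg6* (0.19), *Gas5* (0.15) and *Snhg15* (0.22) at EPS 3h. For the EPS comparisons in that set they were *Gas5* (0.015) and *Snhg8* (0.069) at EPS 0h against Rest in control, *Snhg18* at EPS 3h against Rest (-0.28) and against EPS 0h (-0.11) in control, and *Snhg8* (0.26) at EPS 3h against Rest in Tug1 KD. At EPS 3h against Rest in control, library size scaling gave -0.0083 for *Snhg8* and -0.14 for *Snhg18*, and *Snhg18* was -0.015 with upper quartile factors, -0.065 without the filter and -0.027 with 10 counts in 6 libraries. In Tug1 KD the same comparison gave -0.0030 for *Snhg18* by library size and, for *Snhg8*, 0.0094 by DESeq2, 0.0081 with the compared groups alone and 0.0012 with a set term, and DESeq2 gave 0.0078 for *Snhg1* at EPS 0h against Rest. The cause of these changes was not tested.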
